A study of Populus trichocarpa with 45 samples.

Results

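Along the branches of 3 black cottonwood trees (Populus trichocarpa), the leaf transcripts of 150 genes moved together. They were chosen from the measured values themselves. For each of the 34700 annotated genes, log2(TPM + 1) was averaged over the libraries of a branch, and the mean of the 5 branches of its tree was subtracted. TPM is a relative transcript level, corrected for transcript length and for the library total. Among the 15133 genes with a mean of at least 5 TPM, the members were the 150 with the highest Pearson r, over 15 branches, to PtStettler14.14G101600, which is itself counted as a member and is called the anchor gene below. Counts of members below leave the anchor gene itself out unless they are given out of 150. They made up 0.991% of the genes that could be chosen. The order of the branches is therefore the order of this gene's own level and not a height, an age or a treatment.

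Leaves of 1 crown carry nearly the same genome but grow at different heights, in different light and on wood of different age. Leaf transcript levels are known to follow light, temperature, water supply and leaf age, so that branches of a tree can differ in expression without any difference in sequence. The identifiers of the Stettler annotation were not paired with gene names in the tables used here, and none of them matched the reference table, so no function, protein or promoter is given for any gene below.

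The study asked whether branches of long-lived trees diverge with age in DNA sequence, methylation and expression. Its main text describes mRNA-seq for branches of trees 13 and 14 and names none for tree 4. The deposited mRNA-seq covers 45 leaf libraries of wild trees. There were 5 branches of tree 4 (4.1 to 4.5), 5 of tree 14 (14.1 to 14.5) and 5 of tree 13 (13.1 to 13.5), each with 3 libraries, and no treatment. By the study's text trees 13 and 14 are stems of 1 individual and tree 4 is a different individual, while GEO's label on growth names only 1 tree. Its methods list 13.4 and 14.1 among the branches whose damage prevented an age estimate, and its analysis leaves them out. Its results call the branches left out epicormic. Below, 13.4 is the high end of the anchor gene in tree 13 and 14.1 the low end in tree 14. The 3 libraries of a branch are named biological replicates in one place of the study and technical replicates in another, so p-values here measure the spread between libraries or between branches, and not between individuals.

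Library depth, estimated from the spacing of low FPKM values, ran between 11874228 and 35943612 fragments, with 26987 to 29379 genes above 0. Some libraries stood apart. A set of 198 genes that co-varied between libraries of the same branch, none of them a member, took between 1.03% and 50.6% of TPM (median 5.58%), and it took over 30% in 4 libraries, which were 14.1 replicate 3, 14.3 replicate 2, 4.2 replicate 1 and 4.3 replicate 2. In the other 41 libraries this share was at most 19.8%. Since TPM has a fixed sum, the members' deposited values were low in those 4 libraries, and the 150 members together held between 3.62% (14.1 replicate 3) and 10.02% of TPM in a library (median 7.47%). Tests were run on TPM divided by a median-of-ratios factor, which removes such a shift (factors 0.506 to 1.29). No member was at 0 in any library, and all 150 passed the filter for testing, at least 1 TPM in at least 3 libraries.

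The anchor gene, PtStettler14.14G101600, spans bases 8174027 to 8174810 of chromosome 14 (Stettler genome, plus strand). In tree 13 its 3 libraries had 2.01, 2.27 and 1.66 TPM in branch 13.1, 5.26, 7.31 and 6.21 TPM in 13.2, and 12.1, 10.95 and 10.4 TPM in 13.5. The 2 highest branches of tree 13 were 13.3, with 12.2, 9.96 and 17.3 TPM, and 13.4, with 14.8, 16.6 and 18.0 TPM. Every library of 13.1 was thus below every other library of that tree, whereas 13.3 overlapped both 13.5 and 13.4.

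In tree 14 the gene had 18.9, 23.0 and 10.1 TPM in 14.1 and 25.5, 20.9 and 28.5 TPM in 14.2. Its values were 79.7, 48.5 and 67.1 TPM in 14.3, 69.6, 76.7 and 69.2 TPM in 14.5, and 81.4, 74.95 and 73.9 TPM in 14.4. Branches 14.1 and 14.2 overlapped each other and lay below all 9 libraries of the other 3 branches, which also overlapped among themselves. In tree 4 the branch means were 29.2 ± 10.01 TPM in 4.1, 48.5 ± 2.05 TPM in 4.4, 96.4 ± 29.9 TPM in 4.3, 117.5 ± 27.2 TPM in 4.2 and 178.8 ± 29.3 TPM in 4.5 (SD, n = 3 libraries each). Only the neighbouring branches 4.3 and 4.2 overlapped in tree 4.

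The mean of the other members kept nearly the same order, which the rule required. On the tree-centred log2 scale it was -0.52 in 13.1, -0.10 in 13.2, 0.13 in 13.5, 0.20 in 13.3 and 0.30 in 13.4. In tree 14 it was -0.49 in 14.1, -0.17 in 14.2, 0.10 in 14.3 and 0.28 in both 14.5 and 14.4. In tree 4 it was -0.42 in 4.1, -0.25 in 4.4, 0.04 in 4.3, 0.16 in 4.2 and 0.46 in 4.5. The median of the other eligible genes stayed between -0.16 and 0.14 in the same branches, with an r of -0.22 to the anchor gene over 15 branches. Beside this, the branch values of the members' mean had an r of 0.23 to log2 depth and of -0.20 to the share of the 198 co-varying genes (15 branches, both tree-centred, descriptions only). The part of depth and of these genes in the pattern was not tested.

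**Figure D1:**
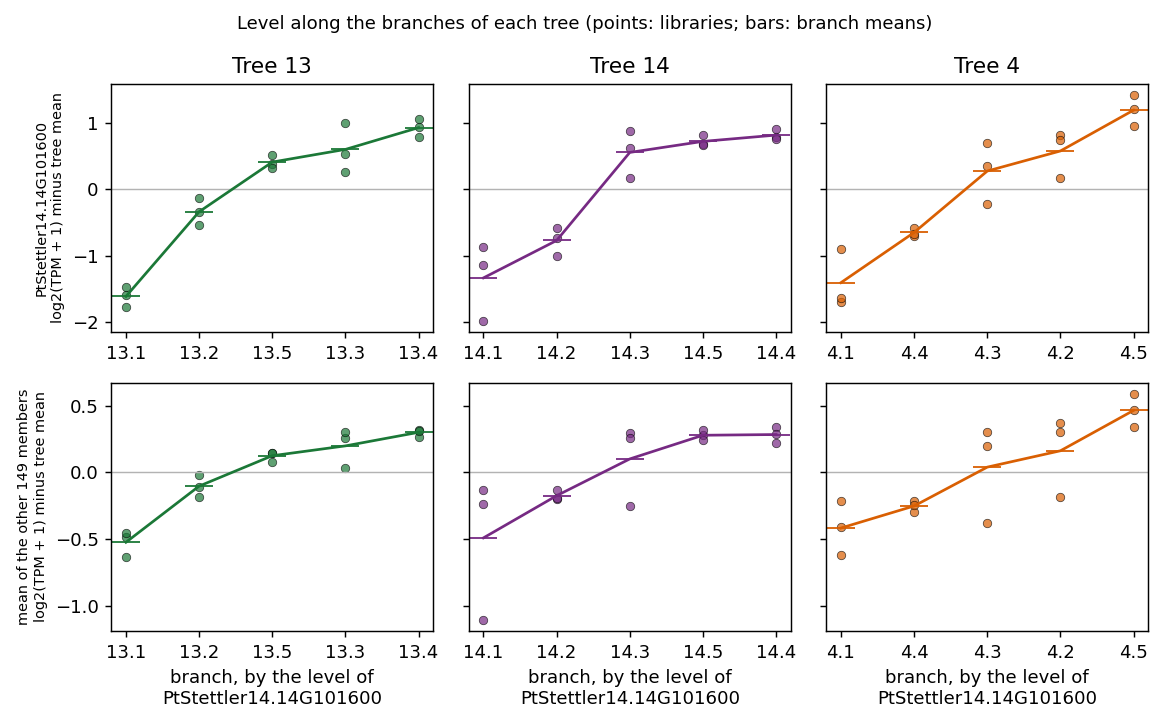
Tree-centred log2(TPM + 1) of PtStettler14.14G101600 (top) and of the mean of the other members (bottom) in the branches of trees 13, 14 and 4, placed from left to right by the level of the anchor gene. Points are libraries (3 per branch) and bars joined by a line are branch means. The members' mean climbs by 0.82 log2 units in tree 13, 0.77 in tree 14 (0.47 without 14.1 replicate 3) and 0.88 in tree 4, and single low points in 14.1, 14.3, 4.2 and 4.3 are the 4 libraries rich in co-varying genes.

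Branch 1 was the low end in each tree. Among the branches of tree 13, 13.1 was the lowest for every member. In 14.1, 147 members were lowest among the branches of tree 14, and in 4.1, 124 among those of tree 4, where the remaining 25 were lowest in 4.4. The high end was less uniform. Branch 4.5 was the highest for 145 members, 13.4 for 114, and in tree 14 the members divided between 14.5 (79 members) and 14.4 (67 members). The full order of the anchor gene over the 5 branches was shared by 77 members in tree 13, by 59 in tree 14 and by 93 in tree 4.

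The low position of 14.1 rested partly on 1 library. Without 14.1 replicate 3, the members' mean was -0.24 in 14.1 and -0.24 in 14.2, and 88 members were lowest in 14.1 and 60 in 14.2. The anchor gene itself remained lower in 14.1 (-1.08) than in 14.2 (-0.84). The difference between 14.4 and 14.1 in the members' mean was 0.47 log2 units without that library, against 0.77 with it. The median r within tree 14 was 0.94 without it and every member kept an r above 0, but members above 0.9 numbered 105, against 140 with it. The lowest fold of a member between 14.4 and 14.1 was then 0.968, and it was 1.24 with all libraries. These values describe what the rule selected.

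Within single trees the median r of the members to the anchor gene, over 5 branches, reached 0.98 (tree 13), 0.96 (tree 14) and 0.96 (tree 4). Every member was above 0 in each tree, and 148, 140 and 141 of them were above 0.9 in trees 13, 14 and 4. The other eligible genes had medians of -0.38, 0.14 and -0.33, and 5.48%, 2.94% and 1.94% of them were above 0.9. These values describe what the rule selected and are not tests.

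Members tracked each other, which follows from the rule, since each had an r of at least 0.922 to the same gene over the same branches. The median r between pairs of members over 15 branches was 0.93, and the lowest was 0.77. Just inside the threshold were PtStettler14.08G201400 (chromosome 8, r = 0.922) and PtStettler14.14G056300 (chromosome 14, r = 0.9221). Just outside it were PtStettler14.09G114100 (chromosome 9, r = 0.9220) and PtStettler14.18G073100 (chromosome 18, r = 0.9217). No gap in r separated these 4 genes, so the limit of 150 is one of number only. In the opposite direction, 21 eligible genes had an r at or below the negative of the threshold.

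Membership depended on how the values were scaled. With TPM divided by the median-of-ratios factors before the rule was applied, 75 of the 150 members were chosen again, and with Spearman's rho in place of Pearson's r, 87 were. All 150 still had an r of at least 0.9 to the anchor gene on the scaled values (lowest 0.90, median 0.957), but 719 eligible genes reached 0.9 there, against 222 on TPM as deposited, and the lowest-ranked member stood at place 701. Without the 4 libraries rich in co-varying genes, 104 members were chosen again, and the median r of the original members was 0.98, 0.97 and 0.97 within trees 13, 14 and 4. The limit of 150 thus left out many genes with a similar r, and which genes fell inside it depended on the scaling.

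The question whether the pattern holds in each tree was put to genes chosen without that tree. The anchor gene, which is the covariate, was picked with all trees in use, and so was the limit of 5 TPM applied. The tree left out was thus unused only in the choice of the other genes. The same rule was applied to the 10 branches of 2 trees, and the genes it chose, as many as the members, were then fitted in the tree left out, by limma on the 5 branch means of log2(scaled TPM + 1) with the branch mean of the anchor gene as the covariate. A gene was called at a Benjamini-Hochberg adjusted p of at most 0.05 over all genes tested. In each tree, most of the genes chosen on the other 2 trees followed the anchor gene. These genes were chosen to move together, and all were fitted on the same 5 branch means. The counts below are therefore not separate observations.

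In tree 4, 114 (76.5%) of the genes chosen on trees 13 and 14 had a positive slope past the threshold and 0 a negative one (137 and 0 at an unadjusted p under 0.05). Over all genes tested in that tree, 9.33% were called positive and 10.8% negative. An unadjusted p under 0.05, in either direction, was reached by 8584 of all 23790 genes tested. The median slope was 0.30 log2 units per log2 unit of the anchor gene, against 0.00 in the other eligible genes, and 148 slopes were above 0, all but 1. Among these genes, 101 were also members.

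In tree 14, 136 (91.3%) of the genes chosen on trees 13 and 4 were called positive and 0 negative (143 and 0 at an unadjusted p under 0.05), where 6.97% of all genes tested were called positive and 6.88% negative. An unadjusted p under 0.05, in either direction, was reached by 7265 of all 23794 genes tested. The median slope was 0.24, and 112 of the genes were also members. Without 14.1 replicate 3 the count was 138, and without replicate number 1 of every branch it was 72.

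In tree 13, 131 (87.9%) of the genes chosen on trees 14 and 4 were called positive and 0 negative (146 and 0 at an unadjusted p under 0.05), where 3.88% of all genes tested were called positive and 2.98% negative. An unadjusted p under 0.05, in either direction, was reached by 6195 of all 23790 genes tested. The median slope was 0.30, and 119 of the genes were also members. Without replicate number 3 of every branch 61 were called, and with no filter on low values 77.

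The r of the chosen genes in the tree left out had medians of 0.97, 0.93 and 0.94 in trees 13, 14 and 4. In tree 14 every gene was above 0, in tree 13 148 were and in tree 4 147 were, and above 0.9 were 123, 108 and 98 in trees 13, 14 and 4. Of the other eligible genes 5.65%, 3.16% and 2.23% were above 0.9.

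**Figure D2:**
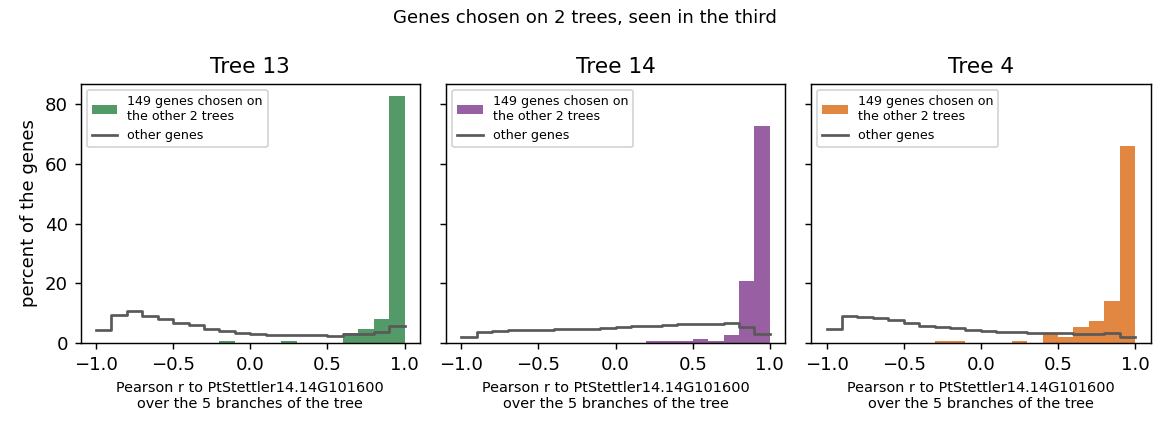
Distribution of the Pearson r to PtStettler14.14G101600 over the 5 branches of a tree, for the genes chosen on the other 2 trees (bars) and for the other eligible genes (line), as a percent of each set in steps of 0.1. In each tree most chosen genes lie in the topmost step, above 0.9, which holds 123 genes in tree 13, 108 in tree 14 and 98 in tree 4.

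PtStettler14.12G067300 (chromosome 12, 10425331 to 10425854, plus strand) had the highest r to the anchor gene, 0.986. Its libraries had 53.4, 44.6 and 54.1 TPM in 13.4, against 19.7, 21.0 and 20.2 TPM in 13.1. In tree 4 they had 83.3, 83.2 and 80.6 TPM in 4.5, against 34.6, 37.9 and 28.9 TPM in 4.1. In tree 14 they had 71.4, 65.6 and 73.8 TPM in 14.4, against 42.9, 49.8 and 17.8 TPM in 14.1, so that the end branches did not overlap in any tree. Its slope in the tree left out was 0.55 (SE 0.05) in tree 4, 0.47 (SE 0.05) in tree 14 and 0.56 (SE 0.05) in tree 13, with limma adjusted p of 0.00397, 0.0038 and 0.00856.

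The next genes by r covered a wide span of levels. PtStettler14.02G214900 (chromosome 2, r = 0.985) averaged 541.7 TPM over the 45 libraries, and PtStettler14.02G187100 (chromosome 2, r = 0.975) averaged 11.8 TPM. PtStettler14.02G214900 had 739.9 ± 111.4 TPM in 4.5, against 443.4 ± 74.2 TPM in 4.1 (SD, n = 3 libraries each). PtStettler14.02G187100 had 19.3 ± 1.98 TPM in 4.5, against 11.4 ± 1.31 TPM in 4.1. The ratio between the 2 branches was similar although the levels differed widely.

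PtStettler14.05G090100 (chromosome 5, r = 0.984) had 119.6 ± 9.17 TPM in 13.4, against 62.3 ± 6.57 TPM in 13.1. PtStettler14.02G117000 (chromosome 2, r = 0.983) had 45.6 ± 2.86 TPM in 13.4, against 17.8 ± 1.55 TPM in 13.1, and PtStettler14.02G081300 (chromosome 2, r = 0.981) had 61.1 ± 2.60 TPM in 13.4, against 25.6 ± 0.67 TPM in 13.1. PtStettler14.01G182000 (chromosome 1, r = 0.977) and PtStettler14.14G088200 (chromosome 14, r = 0.974) completed the 8 genes of highest r. Their ranges over the branches were 0.91 and 0.86 on the tree-centred log2 scale, smaller than the 1.58 of PtStettler14.02G117000. A high r thus went with both steep and shallow changes.

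The size of the change differed widely between members. The range of the tree-centred branch means had a median of 0.91 log2 units over the members (0.50 to 3.10), against 0.48 in the other eligible genes. A range of at least 1.5 was reached by 11 members from 5 to 20 TPM, by 11 from 20 to 100 TPM, by 2 from 100 to 1000 TPM and by 0 of the 27 above that. The widest range, 3.10, was that of PtStettler14.14G023900 (chromosome 14, 1978506 to 1979012, plus strand), which had 17.9 ± 0.61 TPM in 4.5, against 1.21 ± 0.06 TPM in 4.1 (SD, n = 3 libraries each). Its change was smaller in tree 13, with 4.46 ± 0.63 TPM in 13.4, against 1.29 ± 0.13 TPM in 13.1.

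PtStettler14.17G014600 (chromosome 17, 1295145 to 1298790, plus strand) had a range of 2.83. It had 26.1 ± 2.62 TPM in 4.5, against 2.83 ± 0.70 TPM in 4.1, and 4.87 ± 0.79 TPM in 13.4, against 0.447 ± 0.18 TPM in 13.1. PtStettler14.07G007800 (chromosome 7, 674625 to 676338, minus strand) had a range of 2.70 and uneven libraries, with 877.9, 98.4 and 195.1 TPM in 4.3, where 1 library decided the mean. PtStettler14.01G403100 (chromosome 1) had a range of 2.40 and PtStettler14.14G104000 (chromosome 14) one of 2.20. On the log2(TPM + 1) scale the changes of genes near 1 TPM are understated.

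Comparing the 2 end branches of the anchor gene in each tree, every library of 4.5 was above every library of 4.1 in 138 of the 150 members, every library of 14.4 above every library of 14.1 in 134, and every library of 13.4 above every library of 13.1 in 150. Among the other eligible genes this held for 15.8%, 5.84% and 14.5% in trees 4, 14 and 13. The rule used this contrast, and nothing is read from these counts. The median fold between the end branches was 1.68 for 4.5 over 4.1, 1.58 for 14.4 over 14.1 and 1.62 for 13.4 over 13.1, and 50, 25 and 41 members reached at least 2-fold in trees 4, 14 and 13. Without 14.1 replicate 3 the median fold in tree 14 was 1.31. Branches 13.4 and 14.1 are among those the study left out of its analysis.

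The members ran from weakly expressed genes to the most abundant leaf transcripts. Of the 98 genes averaging 1000 TPM or more, 27 were members and 71 were not, whereas in the class from 5 to 20 TPM 44 genes were members and 8548 were not. The most abundant member was PtStettler14.03G046100 (chromosome 3, 9161714 to 9163238, plus strand). It had 6295 ± 842 TPM in 4.5, against 4168 ± 769 TPM in 4.1, 5965 ± 203 TPM in 14.4, against 4066 ± 1330 TPM in 14.1, and 5492 ± 173 TPM in 13.4, against 3476 ± 438 TPM in 13.1. PtStettler14.02G198100 (chromosome 2) averaged 3825 TPM and PtStettler14.01G377900 (chromosome 1) 3160 TPM. All 27 of these members had a range between 0.55 and 0.85, so that none of them changed as much as 1 log2 unit.

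Abundant genes that are not members also had higher r than weak ones. Leaving the members out, the median r to the anchor gene was 0.46 over the 71 genes of 1000 TPM or more, against -0.16 over the 8548 genes from 5 to 20 TPM, and 35 of the 71 (49.3%) had an r above 0.5, against 11.7%. These are descriptions, with no test. Members averaged 55.8 TPM at the median, against 16.4 TPM in the other eligible genes, and their gene spans were shorter, with a median of 1832 bases against 3484 bases. Whether length or abundance plays a part in the pattern was not tested.

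**Figure D3:**
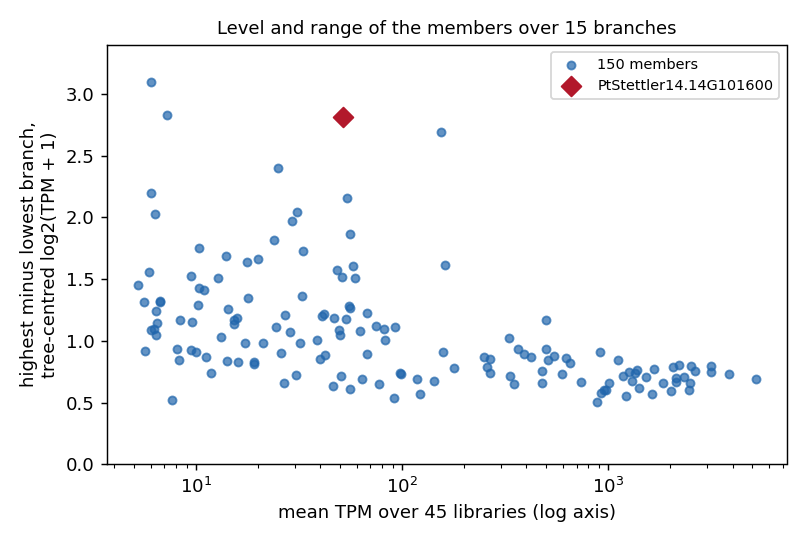
Mean TPM of each of the 150 members over 45 libraries (log axis) against its range, the highest minus the lowest tree-centred branch mean of log2(TPM + 1). The diamond is PtStettler14.14G101600. Ranges above 1.5 occur mainly under 100 TPM, and the 27 members of 1000 TPM or more lie between 0.55 and 0.85.

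The members were spread over all 19 chromosomes. Chromosome 14 held 16 of them (10.7%, against 5.04% of the eligible genes), chromosome 2 held 18 (12%, against 7.24%) and chromosome 1 held 19 (12.7%, against 12.1%). There were 5 pairs of members that are next neighbours in the annotation and no longer run. The first of them, PtStettler14.01G204900 and PtStettler14.01G205000 on chromosome 1, lie 217142 bases apart on opposite strands. PtStettler14.01G204900 had a range of 2.04 and PtStettler14.01G205000 one of 0.89, with an r of 0.90 between them over the 15 branches. PtStettler14.12G067300 is next to the member PtStettler14.12G067200, 10983 bases away on the same strand (r = 0.986). In PtStettler14.02G116900 and PtStettler14.02G117000, which lie 5153 bases apart on the same strand, r was also 0.986. How reads were divided between such neighbours, if they are alike in sequence, was not tested. A gene next to them overlapped 13 members (8.67%, against 7.02% of the eligible genes), 10 of these on the opposite strand, and their values are less certain where reads could be given to either gene.

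The rule used branch means, so differences between libraries of the same branch are a separate measure. The slope of each gene on the anchor gene was fitted over all 45 libraries by limma with branch as a factor, which leaves only deviations from the branch mean. Of the members, 118 (79.2%) had a positive slope past the threshold and 0 a negative one (139 and 0 at an unadjusted p under 0.05), where 8.07% of all genes tested were called positive and 3% negative. An unadjusted p under 0.05, in either direction, was reached by 6446 of all 23795 genes tested. Every slope was above 0, with a median of 0.43, against 0.05 in the other eligible genes, of which 60.8% were above 0. Members were chosen to move together over branches and were fitted on the same 45 libraries, so the 118 are not separate observations.

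The steepest was PtStettler14.01G403100, at 0.86 log2 units per log2 unit of the anchor gene (SE 0.13, limma adjusted p = 0.000157). PtStettler14.17G092100 (chromosome 17) followed at 0.73 (SE 0.13, limma adjusted p = 0.000672) and PtStettler14.01G231400 (chromosome 1) at 0.67 (SE 0.11, limma adjusted p = 0.000312). The member of highest r over branches, PtStettler14.12G067300, had a slope of 0.32 (SE 0.13) and missed the threshold (limma adjusted p = 0.0963). PtStettler14.02G117000 missed it as well, at 0.27 (SE 0.16, limma adjusted p = 0.280). The order by r over branches was thus not the order by slope between libraries.

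In 42 of the 45 libraries the anchor gene and the members' mean lay on the same side of their branch mean. The deviations ran between -0.47 and 0.52 for the anchor gene and between -0.20 and 0.21 for the members' mean. The median of the other eligible genes also lay on the anchor gene's side in most libraries, with smaller deviations (-0.03 to 0.03). Agreement in side is thus not particular to the members. By construction the 3 deviations of a branch sum to 0, so the 45 libraries are not separate observations. With the share of the 198 co-varying genes as a covariate 119 members were called, and with the replicate number as a block 99. The call depended on which replicate number was left out. Without number 2 of every branch 0 members were called (97 positive and 0 negative at an unadjusted p under 0.05), and 0 of all 23795 genes tested were. Without number 1, 45 members were called (126 positive at an unadjusted p under 0.05), among 266 of all genes tested. Without number 3, 93 members were called (123 positive), among 1600 genes. Without number 2, 1 and 3, 2130, 3947 and 5903 of all genes had an unadjusted p under 0.05, in either direction. In the libraries of a single tree, an alternative chosen after seeing the data, 0 members and 0 of all genes tested were called by limma. At an unadjusted p under 0.05, 118 slopes were positive in tree 4, 110 in tree 14 and 57 in tree 13, with 0 negative in each, and 147, 148 and 144 slopes were above 0. Of all 23795 genes tested, 3801, 2329 and 1785 had an unadjusted p under 0.05 in trees 4, 14 and 13, in either direction.

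**Figure D4:**
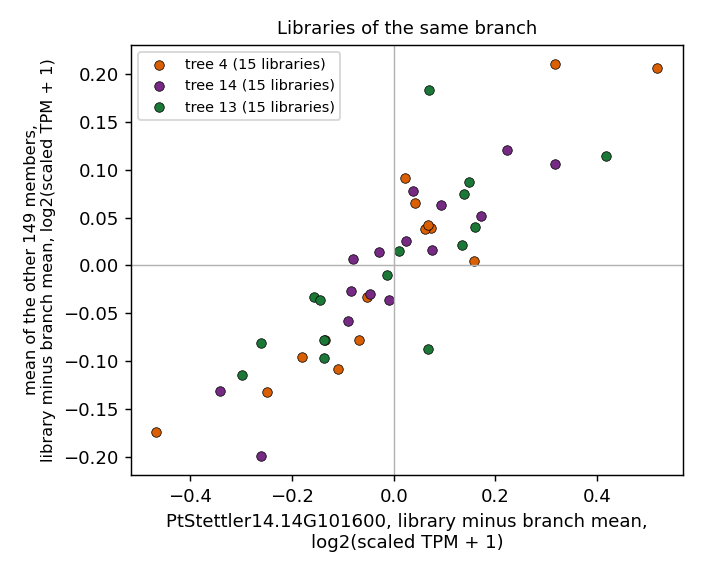
Deviation of each library from its branch mean on the log2(scaled TPM + 1) scale, for PtStettler14.14G101600 (horizontal) and for the mean of the other members (vertical). Each point is 1 of 45 libraries, coloured by tree. Points rise from lower left to upper right in all 3 trees, and 42 lie on the same side of 0 on both axes.

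The correlation in the rule did not use levels between trees, since each tree's mean was subtracted. The limit of 5 TPM did use them, as it was applied to the mean over all trees. A gene weak in some trees could thus be eligible through a higher level in another. The part of this limit in the differences below was not tested. Levels between trees were compared by limma on the 15 branch means, with 5 branches per tree. Tree 4 against trees 13 and 14 gave no common direction. Of the members, 16 were higher in tree 4 and 10 lower (17.4% in all), where 17.6% of all genes tested were called higher and 18.9% lower. Their median difference was -0.01 log2 units.

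PtStettler14.15G109300 (chromosome 15, 13768715 to 13769681, minus strand) was the member that rose most in tree 4. It averaged 321.0 ± 79.8 TPM in tree 4, against 121.5 ± 45.5 TPM in tree 14 and 42.7 ± 15.4 TPM in tree 13 (SD, n = 5 branches each), and its difference was 2.05 (SE 0.28, limma adjusted p = 6.5e-05). PtStettler14.14G137000 (chromosome 14) averaged 26.0 ± 10.5 TPM in tree 4, against 8.91 ± 3.17 TPM in tree 14 and 3.501 ± 1.44 TPM in tree 13, a difference of 1.86 (SE 0.27, limma adjusted p = 0.000111). In the opposite direction, PtStettler14.05G090100 averaged 50.2 ± 14.3 TPM in tree 4, against 95.3 ± 21.2 TPM in tree 14 and 100.01 ± 24.2 TPM in tree 13, a difference of -1.10 (SE 0.21, limma adjusted p = 0.00110). PtStettler14.14G141600 (chromosome 14) averaged 361.5 ± 42.5 TPM in tree 4, against 624.5 ± 133.8 TPM in tree 14 and 539.1 ± 92.5 TPM in tree 13, a difference of -0.80 (SE 0.15, limma adjusted p = 0.000824). PtStettler14.05G090100 and PtStettler14.15G109300 thus both tracked the anchor gene over branches (r = 0.984 and 0.940) while differing between trees in opposite directions.

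Tree 14 lay above tree 13 for nearly all members, though few passed the test singly. The difference was above 0 in 147 members, all but 2, with a median of 0.32 log2 units (-0.05 to 1.61), against 0.00 in the other eligible genes, of which 48.6% were above 0. Members were chosen to move together over branches (median r between pairs 0.93), so their differences are not independent. The 147 are therefore not separate observations. Past the threshold were 7 members higher in tree 14 and 0 lower (33 and 0 at an unadjusted p under 0.05), where 4.64% of all genes tested were called higher and 3.6% lower. As a count, 7 members (4.70%) is close to that share. The unadjusted 33 stands beside 5890 of all 23796 genes tested with an unadjusted p under 0.05 in either direction. The median standard error of a member was 0.19, which by construction includes the spread between branches of a tree described above.

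PtStettler14.15G109300 differed by 1.61 between tree 14 and tree 13 (SE 0.33, limma adjusted p = 0.00706). PtStettler14.19G113800 (chromosome 19, 15597195 to 15598229, plus strand) averaged 14.8 ± 3.39 TPM in tree 14, against 5.31 ± 1.92 TPM in tree 13 (SD, n = 5 branches each), a difference of 1.45 (SE 0.27, limma adjusted p = 0.00364). The anchor gene averaged 51.2 ± 27.9 TPM in tree 14, against 9.81 ± 5.73 TPM in tree 13, and 94.1 ± 59.2 TPM in tree 4. It was picked for large differences between branches of these trees, and its tree levels are given as a description only.

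Which branches were sampled bears on these differences. Counts of members called between trees moved by more than 1.5 times when single branches were left out. Without 14.1, 14 members were higher in tree 14, without 13.3, 12 were, without 13.1 or 13.2, 4 were, and without 14.3, 14.4 or 14.5, 3 were. For tree 4, 10 members were higher without 4.2, 4.3 or 4.5, and the number lower was 4 without 4.1 or 4.4, 5 without 14.3, 6 without 13.2, 13.3, 13.4, 13.5, 14.4 or 14.5, and 16 without 13.1. A difference between trees and a difference in which positions were sampled on each cannot be told apart here. Reads of all trees were aligned to the genome assembled from branch 14.5, and tree 4 is a different individual. Whether alignment differed in tree 4 at single genes was not tested.

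**Figure D5:**
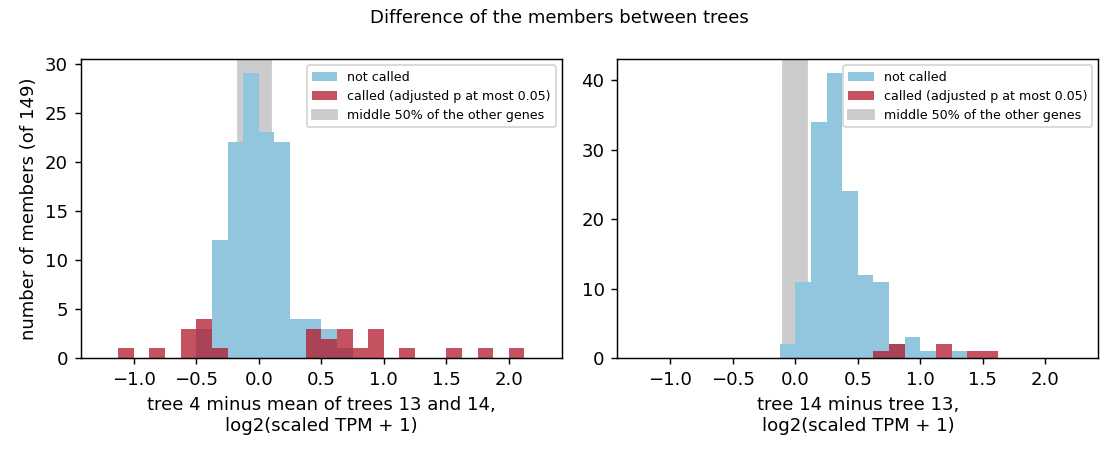
Number of members (anchor gene left out) by their difference between trees on the log2(scaled TPM + 1) scale, tree 4 minus the mean of trees 13 and 14 (left) and tree 14 minus tree 13 (right). Red bars are members called by limma at an adjusted p of at most 0.05, drawn over blue bars of members not called, and the grey band holds the middle 50% of the other eligible genes. The left panel centres near -0.01 with calls on both sides, and the right panel is shifted above 0 with a median of 0.32.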

How the data were processed

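RNA of 45 leaf libraries, 3 per branch, was sequenced. The authors trimmed reads with Trimmomatic 0.36, aligned them with HISAT2 2.1.0 to the Stettler genome and estimated annotated transcripts with StringTie 1.3.4d. The authors deposited FPKM and TPM values per gene and library. TPM was analysed, and the deposited FPKM served only to estimate depth, as low values are multiples of what 1 fragment is worth. TPM was divided by median-of-ratios factors over 25014 genes above 0 in every library, and log2(scaled TPM + 1) was fitted for the 23796 genes reaching 1 TPM in 3 or more libraries, with limma 3.58.1 in R 4.3.3 (mean-variance trend, Benjamini-Hochberg over all genes, adjusted p at most 0.05). Members were chosen on TPM as deposited in Python 3.11.15. Members and tests were chosen with earlier results of these data known.

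Genes named are the anchor gene, the 8 members of next highest r, the 2 on either side of the threshold, the 6 of largest range, the 3 most abundant, the 2 largest called changes in each direction between trees, the 3 steepest called slopes between libraries, PtStettler14.17G014600, and the first of 5 equally long runs of neighbours, with members of other runs named after their values were seen. In simulated data with 200 genes changed by 0.5 log2 units (or a slope of 0.5), 84.5% were recovered for tree 4, 77.5% for tree 14 against tree 13, 75.5% for the slope between libraries, and 82% in tree 4, 60% in tree 14 and 72% in tree 13 for the slope in the tree left out. Alternatives were another scaling, pseudocount, filter and correlation, and leaving out branches, replicate numbers or libraries. Identical values were found in 0 pairs of libraries. The libraries were strand-specific. The study states default settings for alignment and estimation, apart from options unrelated to strand, and names no strand option.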

Additional observations from a re-analysis of the deposited data

How the results depend on the processing

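Over 746 values recomputed under an alternative, 695 kept their direction and stayed on their side of the threshold or near their main value, 0 changed sign, 42 were weaker, 3 stronger and 6 moved. Besides the 75 and 87 members chosen again with scaled TPM and with Spearman's rho, leaving out 1 branch or replicate number kept 112 to 147. The median r was 0.937 to 0.989 in tree 13, 0.861 to 0.985 in tree 14 and 0.909 to 0.974 in tree 4 when a branch or replicate number was left out. In tree 14 it was 0.987 with scaled TPM and 0.90 with Spearman's rho, which gave 1.0 in tree 4. Members lower in tree 4 numbered 4 with TPM as deposited, 6 with no filter and 4 to 16 with branches or replicate numbers left out, and members higher there 10 to 23. Members higher in tree 14 than in tree 13 numbered 3 to 14. The held-out slopes gave 80 to 116 calls in tree 4, 72 to 140 in tree 14 and 61 to 132 in tree 13, where no filter gave 77. The slope between libraries gave 0 to 125 calls when replicate numbers, branches or libraries were left out, and 0 in tree 13 only, 0 in tree 14 only and 0 in tree 4 only. In each of these single-tree fits, and without replicate number 2, 0 of all genes tested were called. Deviations of libraries with the same replicate number in different branches had a median r of 0.01 (-0.55 to 0.62, 117 of 315 pairs above 0.1). The median deviation of the other eligible genes lay below 0 in most libraries numbered 1 and above 0 in most numbered 3. A median over pairs cannot show that the numbers left the libraries unpaired, so whether they pair them was not settled. With the replicate block 99 members were called on the slope between libraries, against 118 without it. Over all genes tested, 902 were called with the block and 2636 without it. Leaving out single libraries, single trees or the 4 libraries rich in co-varying genes, and the scaling factor as a covariate, were chosen after seeing the data. The causes were not tested. Leaving out libraries also leaves fewer samples by construction. Precision is limited by 3 libraries per branch, which may be technical, and by 5 branches per tree.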
